A study of Mus musculus with 6 samples.

Results

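The gasdermin genes were examined in RNA sequencing libraries of mouse pylorus, the part of the stomach that borders the duodenum. The 6 genes described are Gsdmc, Gsdmc2, Gsdmc3 and Gsdmc4, which lie side by side on chromosome 15, and Gsdma and Gsdmd as relatives elsewhere in the genome. They are 6 of the 39179 genes in the deposited table and were taken by their symbols. The set was chosen from the difference between Sox2 KO and Sox2 WT in these same libraries, so that difference is given for them as a description and supports nothing. The groups, Sox2 WT and Sox2 KO, had 3 libraries each, from mice of a C57BL/6 x 129 mixed background. Sox2 KO mice carried Rosa26CreER, a tamoxifen-activated Cre recombinase at the broadly expressed Rosa26 locus, with Sox2 fl/fl. Sox2 WT mice had the same floxed alleles and no CreER (Rosa26WT). All mice were given tamoxifen at 8 weeks of age, and tissue was collected 2 weeks later. RNA came from epithelium and mesenchyme after the muscle had been peeled off, so deletion could also occur outside the epithelium, and CreER itself and the loss of Sox2 cannot be told apart.

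Gasdermins are proteins with a pore-forming amino-terminal domain held inactive by a carboxy-terminal domain. When a caspase, granzyme or other protease cuts the linker between them, the freed domain inserts into the plasma membrane, and the pores release cytokines such as interleukin-1 beta and interleukin-18 and can kill the cell by pyroptosis. Gsdmd is the gasdermin cut by the inflammasome caspases. The Gsdma genes are known from skin and the upper digestive tract, and the Gsdmc genes of the mouse from the intestinal epithelium, where type 2 cytokines acting through Stat6 raise them.

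The 4 Gsdmc genes are close copies of each other, which limits how well their reads can be told apart. The first 120 coding bases of each are printed to show how few letters separate them, from GENCODE transcripts on GRCm38, which is mm10, minus strand, with each base that differs from Gsdmc2 in capitals.
Gsdmc2: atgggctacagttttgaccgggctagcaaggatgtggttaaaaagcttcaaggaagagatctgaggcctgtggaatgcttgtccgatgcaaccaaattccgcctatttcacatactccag
Gsdmc3: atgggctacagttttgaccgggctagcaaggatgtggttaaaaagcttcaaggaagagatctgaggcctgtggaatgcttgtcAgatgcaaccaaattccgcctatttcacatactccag
Gsdmc4: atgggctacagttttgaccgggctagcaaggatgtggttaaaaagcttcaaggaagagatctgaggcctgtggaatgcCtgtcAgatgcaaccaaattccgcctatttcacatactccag
Gsdmc: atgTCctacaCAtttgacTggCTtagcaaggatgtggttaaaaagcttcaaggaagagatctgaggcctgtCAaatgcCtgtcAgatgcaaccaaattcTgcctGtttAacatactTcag
In this stretch Gsdmc3 differed from Gsdmc2 at 1 base, Gsdmc4 at 2 bases and Gsdmc at 15 bases. Over the whole coding sequence, 1440 bases in Gsdmc2 and in Gsdmc3 and 1404 bases in Gsdmc, 97.1% of the aligned bases were identical between Gsdmc2 and Gsdmc3. Gsdmc4 was 93.8% identical to Gsdmc2 and 93.8% to Gsdmc3, and Gsdmc was between 87.0% and 87.5% identical to the other three. Gsdma was 90.9% identical to Gsdma2, its neighbour on chromosome 11, and the Gsdmc genes were between 56.0% and 58.2% identical to the Gsdma genes and Gsdmd. Of all 50-base windows along the transcript, 48.5% in Gsdmc2, 46.9% in Gsdmc3 and 39.0% in Gsdmc4 also occurred without a mismatch in a transcript of another gene. The other genes holding these windows were Gsdmc paralogs in every case. At 100 bases the shares were 28.6%, 30.5% and 20.2%, and Gsdmd had no such window at either length. With no statement of read length or of how reads matching several genes were counted, the split of reads among Gsdmc2, Gsdmc3 and Gsdmc4 is uncertain. Their sum is less so if such reads were shared out among the copies. If such reads were left out, the sum is understated as well.

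**Figure D1:**
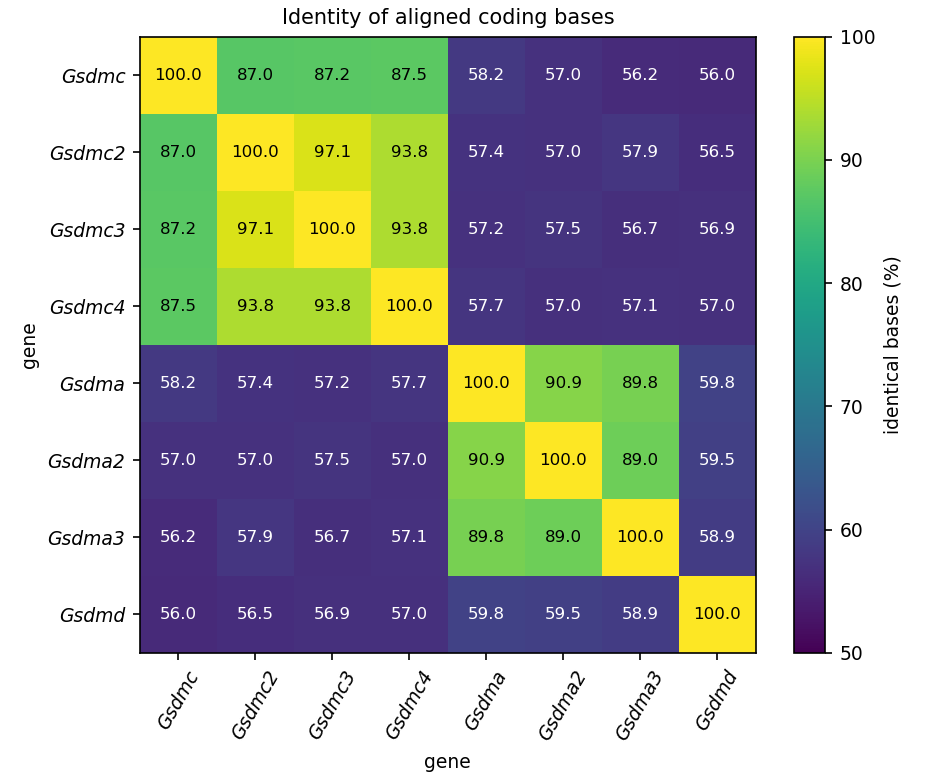
Percent of identical bases between aligned coding sequences of 8 gasdermin genes, with gene names on both axes and colour and numbers giving the identity. Gsdmc2 and Gsdmc3 are the closest pair at 97.1%, and the Gsdmc genes are under 59% identical to every Gsdma gene and to Gsdmd.

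Some facts of the whole series bear on every value here. The values are RPKM, reads scaled to gene length and library size, as the authors deposited them. The denominators recovered from the values, in megareads, lay between 24.1 and 28.0 in Sox2 WT and between 29.0 and 33.9 in Sox2 KO. Values of single libraries are listed in the order of replicates 1, 2 and 3. Sox2, the targeted gene, was measured at 11.1, 9.03 and 10.9 RPKM in Sox2 WT, against 0.342, 0.210 and 0.420 RPKM in Sox2 KO. Its Sox2 KO mean was thus 3.13% of its Sox2 WT mean. Xist, an RNA of the inactive X, reached 36.3 RPKM in Sox2 WT replicate 2 and 33.3 RPKM in replicate 3, and no other library exceeded 0.0124 RPKM. By this gene and the Y-linked Ddx3y, Sox2 WT replicate 1 and all Sox2 KO libraries were male and the other Sox2 WT libraries female, so sex differed along with genotype. No label states that each library came from its own animal, so p-values measure the spread between libraries. Among 14045 genes with a mean of at least 0.5 RPKM, limma on log2(RPKM + 0.5) put 4 past an adjusted p of 0.05, and the median log2 fold change (Sox2 KO minus Sox2 WT) was 0.02.

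Of the 6 genes, 4 passed the filter on low values: Gsdmc2, Gsdmc3, Gsdmc4 and Gsdmd. Gsdmc3 and Gsdmc4 passed it through Sox2 WT, since their Sox2 KO means lay under 0.5 RPKM. Gsdmc and Gsdma did not pass and have no fold change. Limma called 1 of the 4 tested genes, against 0.0285% of all genes tested, and in 3 of the 4 all Sox2 KO values lay below all Sox2 WT values, against 2.99% of all genes tested. Since the genes were chosen on this contrast, nothing is read from these counts.

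Gsdmc2 (ENSMUSG00000056293, chr15:63824346-63845177, minus strand) was the highest of the cluster, at 5.61, 4.45 and 7.06 RPKM in Sox2 WT, against 0.801, 0.594 and 0.808 RPKM in Sox2 KO. The groups were far apart, and the 3 Sox2 KO libraries lay closer together than the Sox2 WT libraries. The male Sox2 WT library, replicate 1, stood between the female ones. These levels correspond to 267, 246 and 355 reads in Sox2 WT and 47, 34 and 54 reads in Sox2 KO. The mean fell from 5.71 ± 1.31 to 0.734 ± 0.122 RPKM (SD, n = 3), which left 12.9% of the Sox2 WT level. With a log2 fold change of -2.31 (SE 0.178), Gsdmc2 had a limma adjusted p of 0.0123, and 2 of the 14045 genes tested had a lower fold change. The call ended without Sox2 WT replicate 1 (limma adjusted p = 0.0612) or 3 (0.0506), or without Sox2 KO replicate 2 (0.0726) or 3 (0.0756). In the male libraries alone, where the single Sox2 WT library is assumed to vary like the others, the log2 fold change was again -2.31, with a limma adjusted p of 0.396. In bulk tissue, fewer cells that express a gene and less RNA in each of them cannot be told apart.

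Gsdmc4 (ENSMUSG00000055748, chr15:63891264-63912297, minus strand), the copy farthest from Gsdmc, was the next in level, at 1.99, 1.50 and 2.14 RPKM in Sox2 WT, against 0.458, 0.261 and 0.611 RPKM in Sox2 KO. The groups did not overlap, and within each group replicate 2 was lowest and replicate 3 highest. The reads behind these levels numbered 95, 83 and 108 in Sox2 WT and 27, 15 and 41 in Sox2 KO. The means were 1.88 ± 0.337 and 0.444 ± 0.176 RPKM (SD, n = 3), so Sox2 KO had 23.6% of the Sox2 WT level. The log2 fold change was -1.34 (SE 0.190) and did not pass the test (limma adjusted p = 0.151).

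Gsdmc3 (ENSMUSG00000055827, chr15:63857724-63878558, minus strand) lies between Gsdmc2 and Gsdmc4 and was lower than both. It was measured at 0.926, 1.07 and 1.15 RPKM in Sox2 WT, against 0.211, 0 and 0.206 RPKM in Sox2 KO. The groups were again separate, on 32, 43 and 42 reads in Sox2 WT and 9, 0 and 10 reads in Sox2 KO. The count of 0 in Sox2 KO replicate 2 allows a level of up to 0.0721 RPKM, the value of 3 reads there, by counting error alone. The means were 1.05 ± 0.114 and 0.139 ± 0.120 RPKM (SD, n = 3), with Sox2 KO at 13.2% of Sox2 WT. The log2 fold change was -1.29 (SE 0.185) and did not pass (limma adjusted p = 0.152). The added 0.5 RPKM makes this scale understate the change of genes this low, by unlike amounts. With 0.1 in its place the log2 fold change was -2.43 for Gsdmc3, -1.90 for Gsdmc4 and -2.79 for Gsdmc2.

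Gsdmc (ENSMUSG00000079025, chr15:63775968-63808759, minus strand), the remaining copy of the cluster, had 1 read in all 6 libraries, in Sox2 WT replicate 2, which is 0.0149 RPKM. The value of 3 reads ran from 0.0370 to 0.0520 RPKM over the libraries, so any difference between groups was not detectable at this depth. The pseudogenes Gsdmcl1 and Gsdmcl2, which lie on the opposite strand between the copies, were listed at 0 in all libraries.

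**Figure D2:**
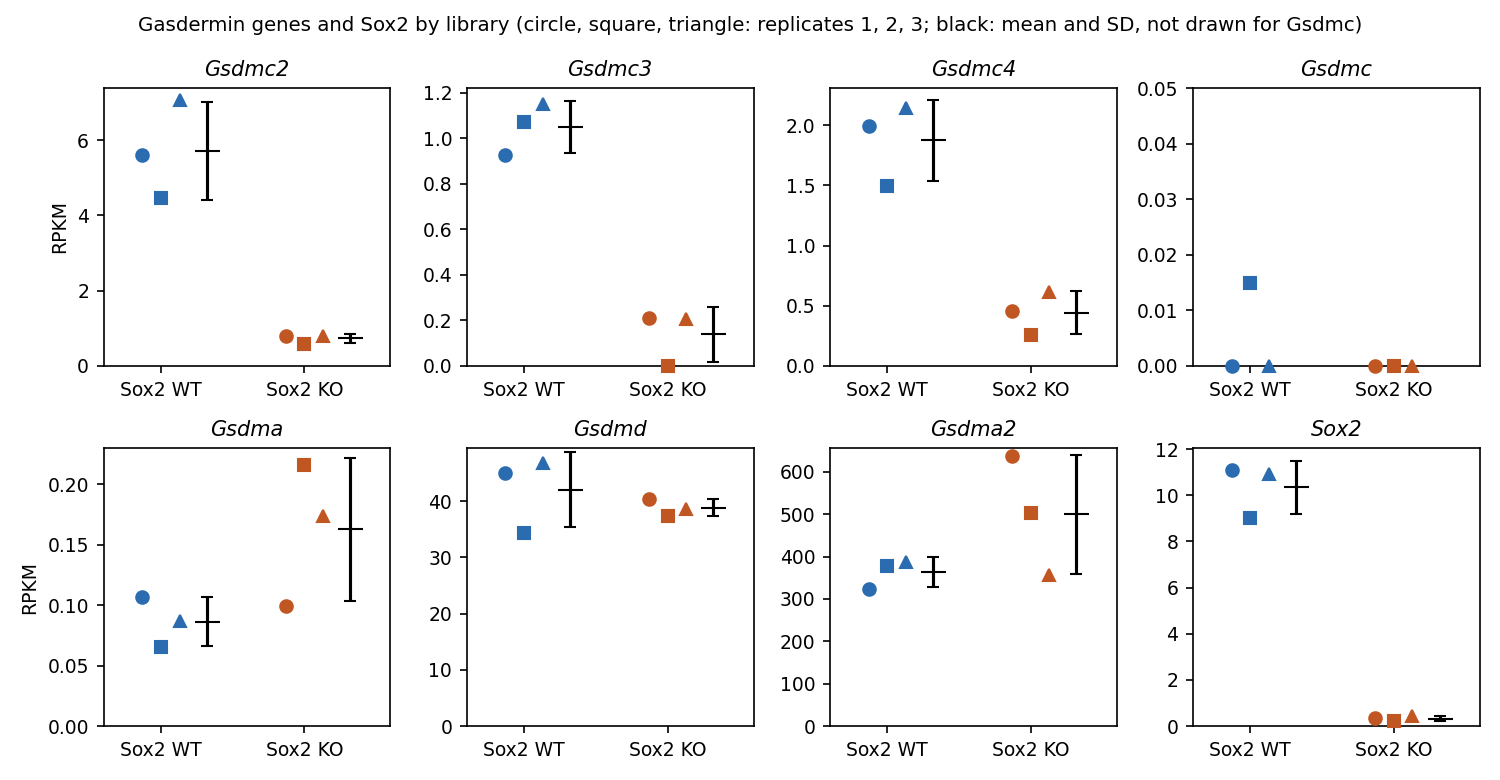
RPKM (y axis, linear from 0, scaled per gene) of 7 gasdermin genes and Sox2 in the 3 Sox2 WT and 3 Sox2 KO libraries, with points for libraries and black marks for the mean and SD. Gsdmc2, Gsdmc3 and Gsdmc4 separate the groups, as Sox2 does, and Gsdmd and Gsdma2 overlap between them.

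Added up, the 4 Gsdmc genes summed to 8.53, 7.04 and 10.4 RPKM in Sox2 WT, against 1.47, 0.855 and 1.63 RPKM in Sox2 KO. On average the sum was 8.64 ± 1.66 (Sox2 WT) against 1.32 ± 0.408 RPKM (Sox2 KO; SD, n = 3), which left 15.2%. This sum depends less than its parts do on how reads were shared out among the copies. Gsdmc2 held 65.8%, 63.3% and 68.2% of the sum in Sox2 WT and 54.5%, 69.5% and 49.7% in Sox2 KO, so its share overlapped between groups. Gsdmc4 held 23.3%, 21.3% and 20.7% in Sox2 WT and 31.2%, 30.5% and 37.6% in Sox2 KO, with no overlap. The ratio of Gsdmc4 to Gsdmc2 was 0.355, 0.336 and 0.303 in Sox2 WT and 0.572, 0.440 and 0.757 in Sox2 KO, where it rests on 15 to 41 reads of Gsdmc4. Gsdmc3 held between 10.9% and 15.2% in Sox2 WT and between 0% and 14.3% in Sox2 KO.

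**Figure D3:**
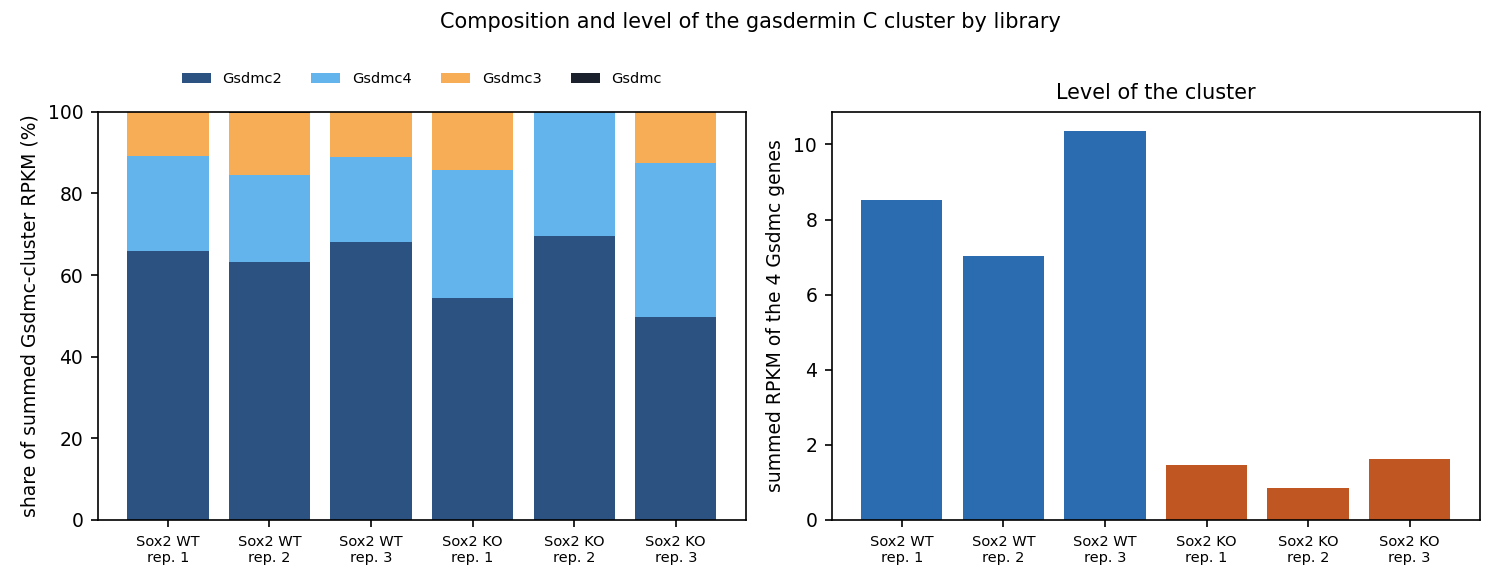
The left panel stacks each gene's share (%) of the summed RPKM of the 4 Gsdmc genes per library, and the right panel gives that sum in RPKM per library. The sum is between 7.04 and 10.4 RPKM in Sox2 WT and between 0.855 and 1.63 RPKM in Sox2 KO, and Gsdmc4 takes a larger share in each Sox2 KO library than in any Sox2 WT library.

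The copies lie within 136 kb, chr15:63775968-63912297. Of 8 annotated genes of the table that start within 1 Mb of the cluster, 2 were expressed. Fam49b, which encodes a regulator of Rac1 and the actin skeleton, lies beyond Gsdmc4 (chr15:63929097-64060478, minus strand). It was measured at 6.82, 8.27 and 8.25 RPKM in Sox2 WT, against 7.54, 7.32 and 8.47 RPKM in Sox2 KO. The groups overlapped, with means of 7.78 ± 0.829 and 7.78 ± 0.609 RPKM (SD, n = 3). Asap1, an Arf GTPase-activating protein gene farther on, was at 3.42 ± 0.683 (Sox2 WT) against 2.95 ± 0.535 RPKM (Sox2 KO; SD, n = 3; log2 fold change -0.18, SE 0.171). In the other 6 neighbours no library exceeded 0.0646 RPKM.

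**Figure D4:**
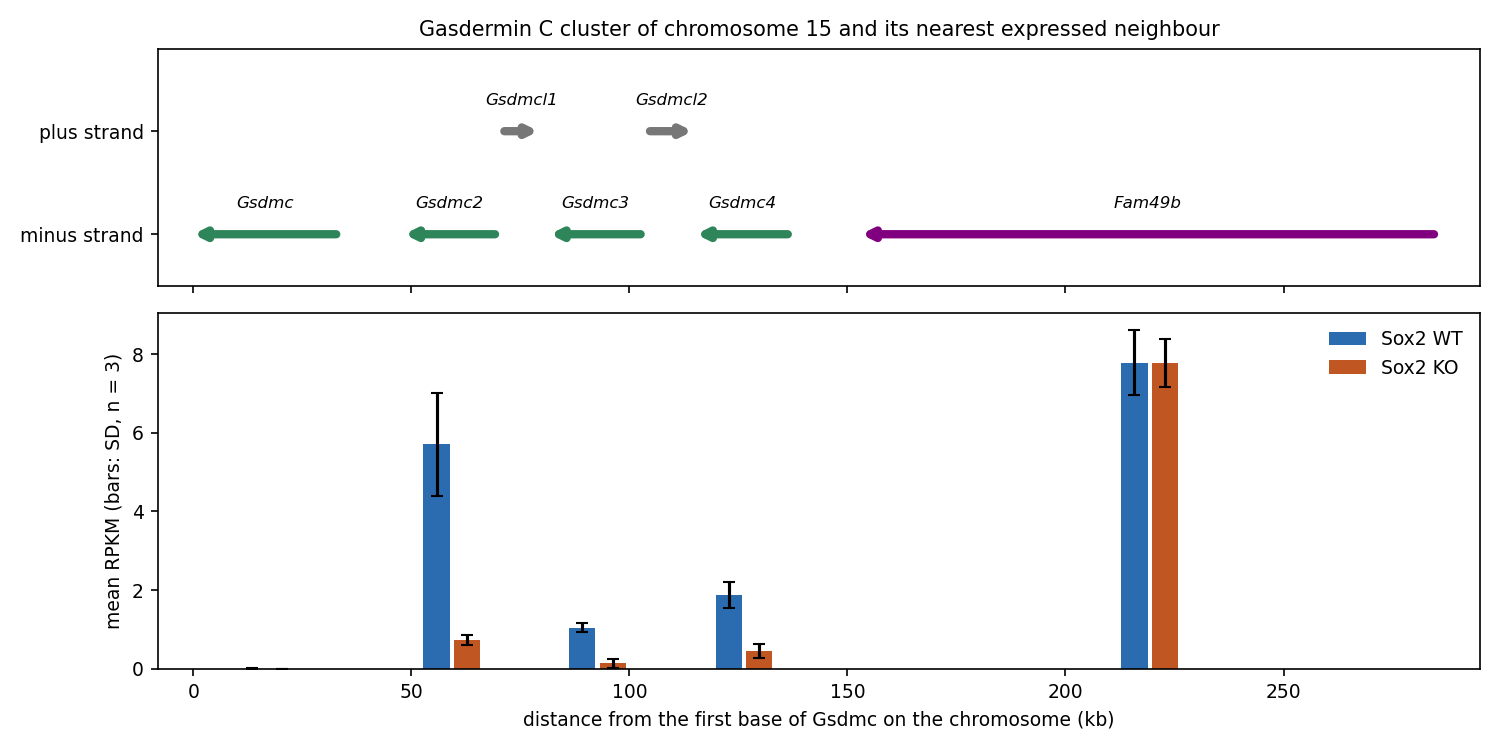
Map of the Gsdmc cluster and Fam49b by distance in kb from the first base of Gsdmc (arrows: genes and their strand), above the mean RPKM of each gene with SD over 3 libraries. Gsdmc2, Gsdmc3 and Gsdmc4 have lower bars in Sox2 KO, and Fam49b has means of 7.78 RPKM in both groups.

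Upstream sequence was at hand for 1 of the 6 genes, Gsdmc3. The 250 bases before its start are printed because they show which letters of factor motifs stand near a gene of the cluster, from RefSeq on GRCm38.p6, chr15:63878559-63878808, minus strand. Capitals mark the SMAD motif CAGAC and the SOX core CATTGT read on the opposite strand.
Gsdmc3 upstream: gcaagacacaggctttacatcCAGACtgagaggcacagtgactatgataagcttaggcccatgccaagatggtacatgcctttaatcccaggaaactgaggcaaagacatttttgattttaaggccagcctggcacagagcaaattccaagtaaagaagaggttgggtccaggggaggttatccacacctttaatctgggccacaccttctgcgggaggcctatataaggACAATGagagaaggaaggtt
The SOX core began 20 bases before the start and was found in 12.6% of 32851 mouse promoter windows of 250 bases before to 50 after a start, counting both strands. CAGAC began 229 bases before the start, and 49.6% of the windows held it. The STAT motif TTCNNNGAA (in 8.30% of windows), its Stat6 form with 1 more base in the gap (6.95%), the GATA motif AGATAA (11.2%) and TATAAA (13.6%) were not in the Gsdmc3 window. Only these exact spellings were searched. The printed bases also hold the similar letters TGATAA and TATATAAG, which were not counted, so other forms of the GATA motif and of the TATA box are not covered. These are matches of letters, and nothing was measured about binding.

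Among the relatives, Gsdmd (ENSMUSG00000022575, chr15:75862327-75867408, plus strand), the executioner of inflammasome-driven pyroptosis, was far higher than the Gsdmc cluster, at 45.0, 34.4 and 46.7 RPKM in Sox2 WT, against 40.4, 37.5 and 38.6 RPKM in Sox2 KO. All Sox2 KO values lay within the Sox2 WT range. The means were 42.0 ± 6.68 and 38.8 ± 1.49 RPKM (SD, n = 3), a log2 difference of -0.10 (SE 0.138) with a limma adjusted p of 0.9995. Its reads, 1701 to 2312 per library, share no window of 50 bases with another gene.

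Gsdma (ENSMUSG00000017204, chr11:98664351-98677708, plus strand) was near the floor, at 0.107, 0.0657 and 0.0866 RPKM in Sox2 WT, against 0.0989, 0.215 and 0.174 RPKM in Sox2 KO, on 5 to 17 reads per library. The groups overlapped, and the gene was too low to be tested. Gsdma shares 8.26% of its 50-base windows with its neighbours Gsdma2 and Gsdma3, and Gsdma2 was far more abundant.

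Gsdma2 (chr11:98646759-98657964, plus strand), which was not in the chosen set, was the most abundant gasdermin of the tissue. It was measured at 323.4, 378.2 and 388.1 RPKM in Sox2 WT, against 637.7, 503.3 and 357.3 RPKM in Sox2 KO. Sox2 KO replicate 3 lay inside the Sox2 WT range and the other Sox2 KO libraries above it (log2 fold change 0.42, SE 0.228, limma adjusted p = 0.9995). Gsdma2 made up between 85.7% and 90.04% of all gasdermin RPKM in Sox2 WT and between 89.7% and 93.8% in Sox2 KO. Gsdmd made up between 5.94% and 11.9% over all libraries. The Gsdmc cluster held 1.68% to 2.32% in Sox2 WT and 0.158% to 0.408% in Sox2 KO.

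The last gasdermins of the table were low. Gsdme, listed as Dfna5, was between 0.191 and 0.383 RPKM, and its annotation overlaps Mpp6, so its reads are uncertain without strand. Gsdma3 was between 0.0245 and 0.230 RPKM, and Pjvk, listed as Dfnb59, was at most 0.0798 RPKM. In order of level, Sox2 WT ran Gsdma2, Gsdmd, Gsdmc2, Gsdmc4, Gsdmc3 and Gsdme with no overlap between neighbours in that order. In Sox2 KO, Gsdma2 and Gsdmd led again, while Gsdmc2 and Gsdmc4 overlapped, the lowest Gsdmc4 value met the highest of Gsdme, and Gsdmc3, Gsdme, Gsdma and Gsdma3 overlapped among themselves.

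Genes whose levels followed Gsdmc2 most closely were ranked by Pearson's r of log2(RPKM + 0.5) over the 6 libraries, among genes with a mean of at least 1 RPKM. The gap between the groups sets most of each r, so no p is given. Sox2 and Homer2, a scaffold protein gene of glutamate receptors, had an r of 0.993 each. Pcyt1b, a gene of phosphatidylcholine synthesis, had 0.992, Tph1, the serotonin-synthesis gene of enterochromaffin cells, 0.990, Stc2, a secreted glycoprotein gene, 0.982, and Clu, the clusterin gene, 0.979. Within the family, r was 0.985 for Gsdmc4, 0.973 for Gsdmc3, 0.470 for Gsdmd and -0.63 for Gsdma2. Tph1 was at 9.78 ± 2.52 (Sox2 WT) against 1.72 ± 0.436 RPKM (Sox2 KO; SD, n = 3; log2 fold change -2.19, limma adjusted p = 0.0501). Homer2 was at 8.41 ± 0.840 against 4.20 ± 0.270 RPKM, Pcyt1b at 2.33 ± 0.0659 against 0.816 ± 0.0722 RPKM and Stc2 at 6.54 ± 0.763 against 2.25 ± 0.438 RPKM (SD, n = 3). Clu was at 471.8 ± 22.6 against 376.1 ± 14.8 RPKM (SD, n = 3). Of these 6 genes Sox2 passed the test. Tph1 did so in 4 of 16 alternative settings, and Pcyt1b and Stc2 in 1 each.

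The machinery around gasdermins was described with 7 lists of proteases, inflammasome parts, released cytokines, membrane repair and upstream signals. They name 66 genes, of which 65 were in the table and 45 were tested. Limma called 0 of the 45, and 2, Casp1 and Chi3l3, had an unadjusted p under 0.05, against 3.15% of all genes tested. In 1 gene all Sox2 KO values lay below all Sox2 WT values, against 2.99% of all genes tested, and in 2 genes they lay above, against 4.09%. The median log2 fold change of the 45 was 0.03, beside 0.02 over all genes tested, and the range was -0.40 to 2.40.

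Of 10 gasdermin-cleaving proteases, 5 were tested, with a median log2 fold change of 0.13. Casp6 was the highest at 157 ± 23.3 (Sox2 WT) against 170 ± 9.76 RPKM (Sox2 KO; SD, n = 3). Casp8, the protease known to cut human GSDMC, was at 21.2 ± 2.15 and 23.1 ± 0.919 RPKM (SD, n = 3). Casp1, the inflammasome caspase that cuts Gsdmd, was measured at 1.62, 2.16 and 2.37 RPKM in Sox2 WT, against 2.46, 3.70 and 3.19 RPKM in Sox2 KO. Its groups just failed to touch (log2 fold change 0.50, SE 0.179, limma adjusted p = 0.9995).

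Among 14 inflammasome genes, sensors and the adaptor, 6 were tested, with a median log2 fold change of 0.16. The adaptor gene Pycard was at 36.1 ± 0.699 (Sox2 WT) against 34.0 ± 6.16 RPKM (Sox2 KO), and Nlrc4, a sensor that works with Naip proteins, at 17.2 ± 2.80 and 18.7 ± 5.00 RPKM (SD, n = 3). Naip2, which detects a bacterial secretion protein, was at 9.03 ± 2.59 and 10.7 ± 3.40 RPKM (SD, n = 3). All 3 overlapped between the groups. Nlrp3 was at most 0.166 RPKM.

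The 7 genes of released cytokines and membrane rupture, 6 of them tested, had a median log2 fold change of 0.00. Il18, a cytokine that leaves through gasdermin pores, was at 178 ± 43.3 (Sox2 WT) against 160 ± 51.0 RPKM (Sox2 KO), and Ninj1, whose product ruptures the membrane of dying cells, at 28.3 ± 1.21 and 30.3 ± 3.33 RPKM (SD, n = 3). The alarmin gene Il33 was measured at 4.76, 3.48 and 22.3 RPKM in Sox2 WT, against 6.82, 7.63 and 6.48 RPKM in Sox2 KO. Sox2 WT replicate 3 thus stood far above the other 5 libraries. All 8 genes of ESCRT membrane repair were tested, with a median log2 fold change of 0.07, and the highest, Chmp2a, was at 148 ± 18.2 and 157 ± 13.7 RPKM (SD, n = 3).

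Of the signals known to act on gasdermin genes, Irf2, an interferon regulatory factor that controls Gsdmd, was at 22.7 ± 0.877 (Sox2 WT) against 23.5 ± 3.98 RPKM (Sox2 KO; SD, n = 3). In the type 2 cytokine axis 7 of 13 genes in the table were tested, 5 positive and 2 negative, with a median log2 fold change of 0.08. Chi3l3 was the highest at 2.40 (SE 0.743, limma adjusted p = 0.9995). Its Sox2 KO values all lay above its Sox2 WT values, as in 4.09% of all genes tested. Retnlb, too low to be tested, was at 0 in Sox2 WT and between 0.0486 and 0.683 RPKM in Sox2 KO. Stat6 was at 31.0 ± 2.90 and 30.7 ± 3.09 RPKM, and Il13ra1, a receptor subunit for interleukin-13, at 22.4 ± 4.17 and 23.8 ± 3.60 RPKM (SD, n = 3). The cytokine genes themselves were near the floor, with Il4 at most 0.193 RPKM and Il13 at most 0.0859 RPKM. All 11 genes of the TGF-beta pathway were tested, with a median log2 fold change of -0.08. Tgfbr2, the receptor that binds the ligand, was measured at 24.6, 22.1 and 24.8 RPKM in Sox2 WT, against 22.08, 21.4 and 18.5 RPKM in Sox2 KO. Its groups met without overlap (log2 fold change -0.20, SE 0.111, limma adjusted p = 0.9995).

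**Figure D5:**
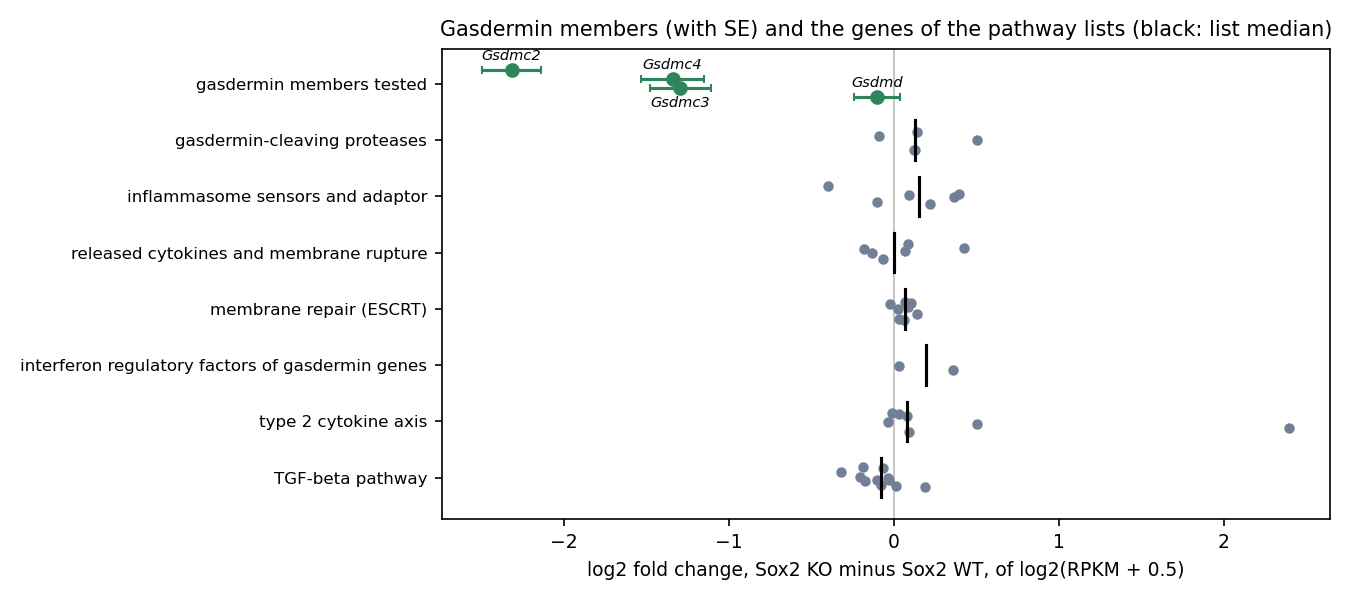
Log2 fold change (x axis, Sox2 KO minus Sox2 WT, of log2(RPKM + 0.5)) of the 4 tested gasdermin genes, with SE, and of each tested gene in 7 pathway lists, with a black line at each list's median. The list medians lie between -0.08 and 0.19, and the rightmost point, at 2.40, is Chi3l3.

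Cell type markers show which other tissue the libraries could hold. Markers of pyloric mucosa, led by Tff1, Gkn2 and Gkn1, were abundant in every library, with summed levels of 123749 to 177661 RPKM in Sox2 WT and 141796 to 198446 RPKM in Sox2 KO. Of 16 markers of the squamous forestomach, Krt6a and Sprr3 were listed at 0, and Krt5, Krt14 and Trp63 did not exceed 0.0674 RPKM. Their sum ran from 56.8 to 478.8 RPKM in Sox2 WT and from 64.6 to 207.2 RPKM in Sox2 KO, nearly all of it Sprr1a, which is also a stress gene of other epithelia. The other 15 summed to 1.81 to 3.76 RPKM in Sox2 WT and 2.10 to 3.49 RPKM in Sox2 KO. Intestinal absorptive markers summed to 215.2 to 475.0 RPKM in Sox2 WT and 244.1 to 345.0 RPKM in Sox2 KO, with Sis, the sucrase gene, at 0 in all libraries. Limma called 0 of the 8 tested, and 3 had an unadjusted p under 0.05, against 3.15% of all genes tested. Of these, Fabp1 (log2 fold change 1.18) and Slc5a1 (0.37) were higher in Sox2 KO and Alpi (-1.10) lower. Immune cell markers, led by Lyz2, summed to 93.8 to 165.5 RPKM in Sox2 WT and 100.6 to 157.5 RPKM in Sox2 KO. Of the 8 tested, limma called 0, and Mcpt1 and Mcpt2 had an unadjusted p under 0.05, against 3.15% of all genes tested. In both, all Sox2 KO values lay above all Sox2 WT values, against 4.09% of all genes tested.

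Some goblet cell markers were higher in the libraries where the Gsdmc genes were lower. Summed over 9 genes, they reached 843.7, 282.1 and 1236 RPKM in Sox2 WT, against 4657, 4312 and 2634 RPKM in Sox2 KO, without overlap, and Clca3 was the largest contributor in every library. Limma called 0 of the 7 tested, against 0.0285% of all genes tested, and 6 had an unadjusted p under 0.05, against 3.15%. All marker lists were chosen with earlier results of these data known, so nothing is read from their counts. The median log2 fold change of the 7 tested goblet genes was 1.39, beside 0.02 over all genes tested. With sex as a covariate it was 1.05. All Sox2 KO libraries were male, so that value rests on the only male Sox2 WT library, replicate 1. In 4 of the 7, Zg16, Itln1, Clca3 and Spink4, all Sox2 KO values lay above all Sox2 WT values, against 4.09% of all genes tested. The defining mucin gene Muc2 was at most 0.887 RPKM in any library, and Atoh1, the regulator of secretory cells, at most 0.0165 RPKM. Clca3, a secreted goblet cell protein gene, was at 553 ± 441 (Sox2 WT) against 2599 ± 782 RPKM (Sox2 KO), and Zg16, a lectin gene, at 46.3 ± 37.1 and 685 ± 279 RPKM (SD, n = 3). The other 3 overlapped between the groups: Fcgbp was at 58.3 ± 30.2 and 156 ± 83.2 RPKM, Tff3 at 6.14 ± 1.19 and 11.2 ± 4.38 RPKM, and Spdef, a regulator of goblet cells, at 18.9 ± 2.96 and 19.7 ± 2.15 RPKM (SD, n = 3). The part of these cells in the Gsdmc values was not tested. Over the 5 marker lists, limma called 0 of 34 tested genes and 11 had an unadjusted p under 0.05, against 3.15% of all genes tested, with 6 of the 11 in the goblet list.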

How the data were processed

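The values are RPKM, which the authors computed and deposited for each library and in 1 table for the series. The tools named per the submitters' processing notes are CASAVA 1.7 and STAR, on mm10. Not given in the sources used here are the counting tool, annotation, filters, strandedness and read length. Each age label says 8 weeks, while the series text gives 10 weeks. Samples were grouped by their titles, and the 6 genes and all lists were chosen with earlier results of these data known.

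Log2(RPKM + 0.5) was tested with limma 3.58.1 in R 4.3.3 (variance trend, Benjamini-Hochberg) over 14045 genes with a mean of at least 0.5 RPKM. The procedure was tested on simulated data. Of rows sharing a symbol, 253 with lower means were dropped. Whole reads were recovered from RPKM steps within a tolerance of 1e-05 reads. They are the smallest whole numbers that fit each gene, and the library denominators were estimated from annotated lengths. Limits of 3 reads cover counting error only.

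Named genes are the 6 genes, Sox2, the other gasdermins, genes within 1 Mb of the cluster, the 6 most like Gsdmc2 (leaving out gasdermins and predicted genes) and, from each list, called genes and the 3 of highest mean RPKM, of which some are given only within sums and some are not reported here. Casp1, Casp8, Chi3l3, the goblet cell genes Muc2, Atoh1, Itln1, Fcgbp, Tff3 and Spdef, and the genes named as near 0 were added after their values were seen. So were the absorptive genes Fabp1, Slc5a1 and Alpi and the genes of the closing section. A planned comparison of protein sequences used coding bases instead, aligned with Biopython 1.88. Alternatives were pseudocounts of 0.1 and 1, no filter or a mean of at least 1 RPKM, median-of-ratios and quantile scaling, no variance trend, a replicate block, sex as a covariate, male libraries alone and each library left out.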

Additional observations from a re-analysis of the deposited data

How the results depend on the processing

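Over 16 alternatives, the log2 fold change of Gsdmc2 was negative in each, from -2.79 to -1.94. It passed the test in 8, with a lowest limma adjusted p of 0.0104. Gsdmc2 was chosen on this contrast and its groups do not overlap, so the constant sign supports nothing. Gsdmc2 did not pass with no filter (-2.31, limma adjusted p = 0.0634) or with the replicate number as a block (-2.31, 0.0617). With sex as a covariate or in male libraries alone it was -2.31 and did not pass. Both of these settings compare Sox2 KO with the only male Sox2 WT library, replicate 1. Leaving out each library gave -2.47 to -2.16. The number of genes past the threshold, 4, became 1 with the replicate block, 1 with sex as a covariate and 0 in male libraries alone, where 581 genes had an unadjusted p under 0.05. Without 1 library it ran from 1 (Sox2 WT replicate 3 or Sox2 KO replicate 2) to 7 (Sox2 WT replicate 1) and 8 (Sox2 KO replicate 1), and the cause was not tested. Deviations of same-numbered libraries correlated at 0.009, 0.097 and -0.074, within the range of -0.158 to 0.165 for differently numbered ones. No pairing by replicate number was seen, but with 3 libraries per group these correlations cannot decide whether any were handled together. Gsdmc4 ran from -1.90 to -0.99 in the 16 alternatives and Gsdmc3 from -2.43 to -0.85 in the 12 in which it passed the filter. Neither passed the test in any of them. Gsdmd ran from -0.24 to -0.02 and Gsdma2 from 0.23 to 0.65. With sex as a covariate or in male libraries alone, the median of the cytokine list was 0.18 and that of the ESCRT list 0.20. Below 3 reads, as in Gsdmc, depth sets the limit. Sox2 passed in 15 of the 16 alternatives, not in male libraries alone (limma adjusted p = 0.158), and Zg16 passed without Sox2 WT replicate 1 (0.0350).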

Other observations

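Some genes known from type 2 responses and from mast cells were highest in Sox2 KO replicate 2, and were picked here after their values were seen. Others of the same type 2 list were highest elsewhere. Stat6 and Il13ra1 were highest in Sox2 WT replicate 3, Il4 in Sox2 KO replicate 1, and Il4ra and Retnlb in Sox2 KO replicate 3. Chi3l3, a chitinase-like gene of alternatively activated macrophages, was measured at 0.128, 0.0880 and 0.218 RPKM in Sox2 WT, against 1.08, 12.8 and 1.35 RPKM in Sox2 KO. All Sox2 KO values lay above all Sox2 WT values, as in 4.09% of all genes tested. Sox2 KO replicate 2 stood far above the rest (log2 fold change 2.40, SE 0.743, limma adjusted p = 0.9995). Chi3l4, another chitinase-like gene, was far more abundant, at 14.9 ± 22.5 (Sox2 WT) against 679 ± 601 RPKM (Sox2 KO; SD, n = 3). Whether reads of Chi3l4 were counted for Chi3l3 was not tested. The mucosal mast cell protease genes Mcpt1 and Mcpt2 were both highest in Sox2 KO replicate 2. For both, all Sox2 KO values lay above all Sox2 WT values, against 4.09% of all genes tested (limma adjusted p = 0.9995 each). Mcpt1 was at 1.58, 0.418 and 1.92 RPKM in Sox2 WT and at 2.56, 8.58 and 3.49 RPKM in Sox2 KO, and Mcpt2 at 6.39, 5.80 and 6.57 RPKM in Sox2 WT and at 8.06, 14.8 and 8.79 RPKM in Sox2 KO. Retnla, a resistin-like gene, was at 27.6 RPKM in that library and between 8.59 and 10.5 RPKM in the other 5. For Gsdmc2 and Gsdmc4, Sox2 KO replicate 2 was the lowest library of all 6, and for Gsdmc3 it was the library at 0. This was not particular to the Gsdmc genes. The same library was also the lowest for Sox2 itself, at 0.210 RPKM, and for Homer2, Pcyt1b and Tph1. Stc2 and Clu were lowest in Sox2 KO replicate 3. A link between these values was not tested.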
